A study of Mus musculus with 4 samples.

Results

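Open chromatin was examined around 8 genes of the tight and adherens junctions, Cldn1, Cldn4, Cldn7, Ocln, Tjp1, F11r, Cdh1 and Cdh3, of 55341 annotated mouse genes. The genes were listed by name, with earlier results of these data known, and the rule that keeps their regions uses positions and no measured level. An open region counted as theirs when it overlapped the gene body or 25 kb on either side of it. In this way 89 of the 82641 open regions of the whole set were kept. Regions near each of the 8 genes were called in all libraries. No region at these genes passed the test for a difference between genotypes, and only 0.234% of all regions tested did.

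Tight junctions seal the space between neighbouring epithelial cells, and in the epidermis they form a barrier in the granular layer. Claudins and occludin are the membrane proteins of the tight junction strands, junctional adhesion molecule A is an immunoglobulin-like adhesion protein beside them, and zonula occludens proteins tie these strands to actin. Adherens junctions hold cells together through cadherins, which bind the same cadherin on the next cell and are linked to actin by catenins. JNK1, the kinase encoded by Mapk8, phosphorylates c-Jun, a subunit of the transcription factor AP-1.

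The libraries were made by ATAC-seq, in which the Tn5 transposase cuts accessible DNA and the cut fragments are sequenced. Keratinocytes, the main cells of the epidermis, were sorted as EpCam+ CD49f-high cells from skin treated for 8 days with Aldara, a cream with 5% imiquimod, which inflames the skin. There were 2 libraries of Wild Type cells (WT) and 2 of Mapk8-KO cells, from adult, age-matched female mice. In the Mapk8-KO mice, Mapk8 fl/fl alleles are cut by a Cre recombinase under the keratin 14 promoter, so that the deletion is limited to cells that use, or once used, that promoter. The controls were littermates, and whether they carried floxed alleles in this experiment is not given in the labels. Both genotypes received imiquimod, so no comparison with untreated skin was made. The study describes the libraries of a genotype as independent samples, and the labels do not say how many mice each came from, so p-values measure the spread between these libraries.

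The lists held 49856 to 69927 peaks, and the depth relative to WT 1, recovered from the pileup of fragments at peak summits, was 0.691 for WT 2, 1.12 for Mapk8-KO 1 and 0.644 for Mapk8-KO 2. The shallower library was replicate 2 in both genotypes. The promoter of Mapk8 itself was called in all 4 libraries, with 96 and 73 fragments in WT and 109 and 90 in Mapk8-KO, which checks no deletion of an exon elsewhere in the gene. Of 8 keratinocyte markers, 6 had a region within 2 kb of a start site in all 4 libraries, Krt5 lacked one in Mapk8-KO 2 and Col17a1 lacked one in both replicates numbered 2. None of 5 immune markers (Ptprc, Cd3e, Cd4, Itgam and Cd207) had one in any library. Such regions were called in all 4 libraries at 2 of 4 endothelial markers (Pecam1 and Tek, with Cdh5 at none), 2 of 4 fibroblast markers (Pdgfra and Col1a1, with Col1a2 and Lum at none) and 3 of 4 melanocyte markers (Pmel, Dct and Mlana, with Tyr at none). The summed pileup of the endothelial list was 106 and 89 fragments in WT and 139 and 61 in Mapk8-KO, that of the fibroblast list 63 and 48 against 82 and 45, and that of the melanocyte list 141 and 96 against 169 and 120. Scaled to the depth of WT 1, the endothelial sums were 106 and 129 against 125 and 94.7 and overlapped. The scaled fibroblast sums were 63.0 and 69.4 against 73.5 and 69.9 and the melanocyte sums 141 and 139 against 151 and 186, with both Mapk8-KO libraries above both WT libraries in each list. The keratinocyte sums were 279 and 237 against 429 and 399, also higher in both Mapk8-KO libraries. Most of that gap came from Krt14 alone, whose summits are given below. Without Krt14 the scaled sums of the genotypes overlapped, so the gap is not a rise across the keratinocyte list. The part of these differences in the junction results was not tested. At Krt14, whose promoter drives the Cre, the highest summit held 38 and 17 fragments in WT and 199 and 109 in Mapk8-KO, and the part of the transgene in these reads was not tested.

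The DNA under the regions that carry the results is shown for the 2 deepest promoters of the group, for the 4 intronic regions at which the genotypes ranked apart, and for the deepest region of Tjp1 and Ocln. All are on mm10 (the GRCm38 sequence), read on the plus strand around the highest summit and trimmed to bases outside exons. Capitals mark matches to AP-1 (TGACTCA or its reverse complement TGAGTCA), to the site of the grainyhead-like factors, which act on epithelial junction genes (AACCNGTT or AACNGGTT), and to the E-box of the SNAI and ZEB repressors (CACCTG or CAGGTG).
F11r promoter, chr1:171437402-171437534: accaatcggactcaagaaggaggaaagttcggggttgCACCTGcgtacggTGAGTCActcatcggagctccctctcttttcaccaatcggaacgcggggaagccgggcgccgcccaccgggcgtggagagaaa
Cldn4 promoter, chr5:134947073-134947222: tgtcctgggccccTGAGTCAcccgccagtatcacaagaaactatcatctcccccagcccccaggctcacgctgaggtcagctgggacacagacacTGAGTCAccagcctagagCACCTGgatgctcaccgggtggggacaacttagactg
F11r intron, chr1:171453092-171453241: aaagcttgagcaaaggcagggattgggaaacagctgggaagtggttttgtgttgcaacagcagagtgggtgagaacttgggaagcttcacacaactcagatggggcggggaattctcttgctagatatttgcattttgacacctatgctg
Usf1 intron upstream of F11r, chr1:171417006-171417107: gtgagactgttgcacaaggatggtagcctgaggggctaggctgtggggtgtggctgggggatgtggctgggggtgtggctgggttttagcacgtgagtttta
Tjp1 intron, higher in WT, chr7:65410634-65410783: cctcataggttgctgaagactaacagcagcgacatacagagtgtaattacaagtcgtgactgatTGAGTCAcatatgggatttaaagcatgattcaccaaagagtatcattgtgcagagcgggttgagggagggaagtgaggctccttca
Tjp1 intron, higher in Mapk8-KO, chr7:65435702-65435851: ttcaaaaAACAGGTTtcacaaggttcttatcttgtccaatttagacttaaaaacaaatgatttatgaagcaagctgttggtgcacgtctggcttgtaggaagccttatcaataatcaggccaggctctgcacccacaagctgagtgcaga
Tjp1 intron, deepest, chr7:65469788-65469937: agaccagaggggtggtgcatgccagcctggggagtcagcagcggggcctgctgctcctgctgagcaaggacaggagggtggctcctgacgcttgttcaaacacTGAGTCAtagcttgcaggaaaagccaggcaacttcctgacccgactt
Ocln intron, deepest, chr13:100516783-100516932: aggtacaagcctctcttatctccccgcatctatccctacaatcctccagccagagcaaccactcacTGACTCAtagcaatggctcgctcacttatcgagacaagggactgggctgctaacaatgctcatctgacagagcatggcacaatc

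The letters of AP-1 stood within 100 bp of the strongest summit in 22 of the 89 regions (24.7%), against 23.7% of all 82641 regions. Those of the E-box stood in 22 regions (24.7%, against 19.0%) and those of the grainyhead-like site in 3 (3.37%, against 3.11%). In the RefSeq table of promoters (GRCm38.p6, windows of 300 bases over each start site), 6 of the 8 genes were matched, with 8 windows; Cdh1 and Cdh3 were not. The F11r window held 1 AP-1 match and the Cldn4 window 2, whereas those of Cldn1, Cldn7, Ocln and Tjp1 held none. Of all 32851 windows in that table, 5.20% held an AP-1 match, 20.2% an E-box and 2.09% a grainyhead-like site. A match is a description of letters and not of a factor bound there.

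Of the 89 regions, 50 were called in all 4 libraries (56.2%, against a background of 48.6%). A further 10 were called in 3 (11.2%, against 15.7%), 18 in 2 (20.2%, against 13.98%) and 11 in 1 (12.4%, against 21.7%). WT 1 called 79 of the 89 (88.8%), WT 2 called 59 (66.3%), Mapk8-KO 1 called 82 (92.1%) and Mapk8-KO 2 called 57 (64.0%). The count followed the replicate number more than the genotype. The whole set did so too, with 83.8%, 65.2%, 83.2% and 59.1% of regions called in the same order of libraries. The commonest partial pattern was a call in the deeper library of each genotype and in neither shallower one, seen for 15 regions (16.9%, against 7.91% of the whole set). A region that was not called is not shown to be closed, since the weakest summit called in each list held 8 to 10 fragments.

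By position, 54 regions had their summit in an intron, 28 between genes and 7 in an exon, and 49 lay inside the body of one of the 8 genes. Of the 89, 23 were promoter regions, meaning that a start site of any gene lay inside them or within 2 kb of their edges. This was 25.8%, against 26.7% of all regions. For 41 regions the nearest start site was that of a listed gene, and the other 48 stood nearer to a neighbour. Those neighbours were led by Gm44792 (10 regions) and Gm44795 (5), both annotated inside Tjp1, Gtf2h2 beside Ocln (5), Gm10073 and Tango6 around the cadherins (4 each), Gm24871 downstream of F11r (4), 1110028F18Rik upstream of Cdh1 (3) and Mettl27 beside Cldn4 (3). Which gene a region belongs to was not tested. One region was shared by the windows of Cdh1 and Cdh3, which lie 46054 bp apart on chromosome 8.

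**Figure D1:**
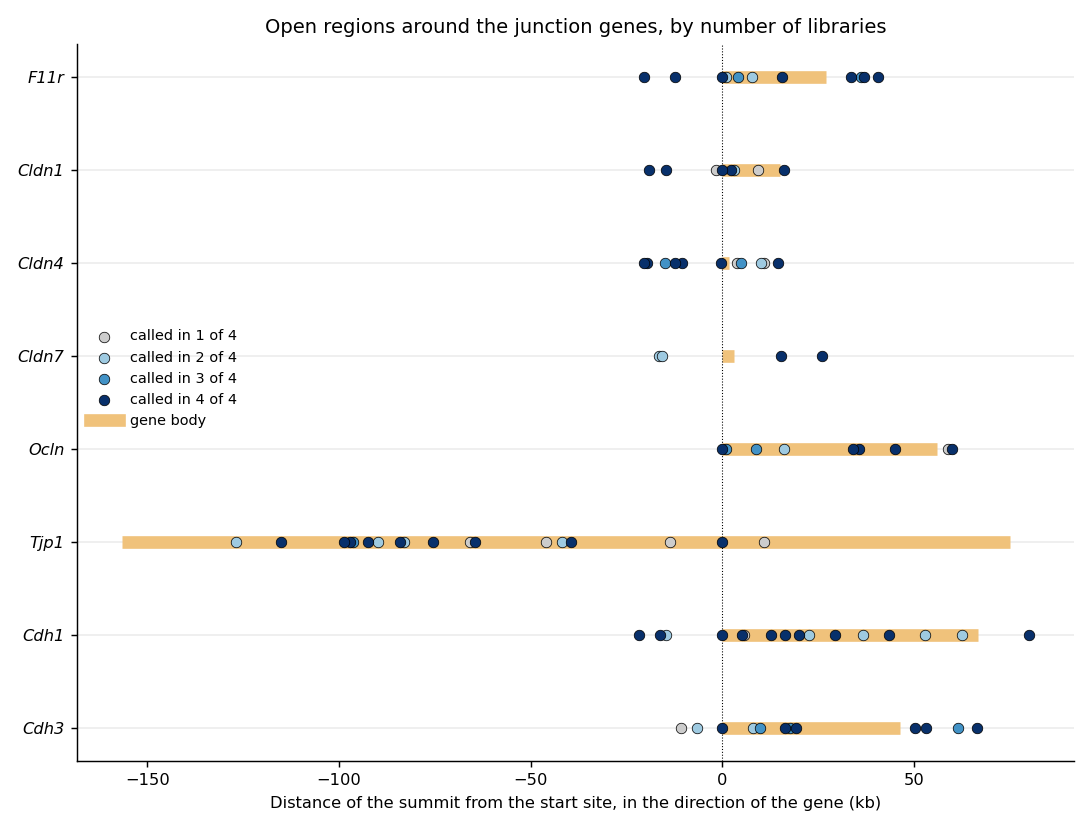
Summits of the 89 regions (points) by distance from the gene's start site in kb, in the direction of transcription, 1 row per gene, shaded by the number of libraries in which the region was called; bars are gene bodies, and the region shared by Cdh1 and Cdh3 is drawn in the row of Cdh1. Tjp1 has 18 regions, all in its body and most of them upstream of the start site used, whereas Cldn7 has 4, none of them at the gene itself.

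For the comparison of genotypes, 3 measures were used. A region was genotype-specific when it was called in both libraries of one genotype and in neither of the other. Among the 50 regions called in all 4 libraries, the fold enrichment over local background was turned into a percentile within each library, and a region was ranked higher in a genotype when both of its libraries exceeded both libraries of the other genotype by 10 percentile points or more. The log2 pileup, centred for depth, was tested with limma over all 40159 regions called in all 4 libraries.

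Of the 89 regions, 1 was called in both WT libraries only (background 2.17%) and 1 in both Mapk8-KO libraries only (background 1.65%). Of the 50, 2 passed the rank gap in favour of WT (background 4.65%) and 2 in favour of Mapk8-KO (background 4.07%). None passed an adjusted p of 0.05 in limma with Benjamini-Hochberg adjustment (background 0.234%, 94 regions of the genome), 4 had an unadjusted p under 0.05 (8%, against 10.4% of all regions tested), and the lowest adjusted p was 0.247. As shares of the regions, the calls in 1 genotype only came to 1.12% each and the rank gaps to 4% each. All of these shares were below the background, but the counts are too small to set the junction genes apart from it. In 28 of the 50 regions the fitted pileup was higher in Mapk8-KO and in 22 lower, and the median log2 difference, Mapk8-KO minus WT, was 0.018, against 0.0053 over all regions tested. Both Mapk8-KO libraries stood above both WT libraries in 12 regions (24%) and below both in 8 (16%), where the whole set gave 20.3% for each.

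Pairs of single libraries were compared within and between genotypes. Over the 50 regions, the median absolute log2 difference was 0.18 for WT 1 against WT 2 and 0.20 for Mapk8-KO 1 against Mapk8-KO 2, and it was 0.19 to 0.26 for the 4 pairs of a WT with a Mapk8-KO library. The 2 highest pairs both held Mapk8-KO 2, which also gave the higher values over the whole set (0.28 and 0.29, against 0.20 and 0.22 for the pairs with Mapk8-KO 1). The fitted differences had standard errors from 0.16 to 0.31, and the interval of the difference included 0 in 46 of 50 regions. With 2 libraries against 2, the smallest two-sided p of an exact permutation test is 0.333, so no single region could be called by such a test.

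**Figure D2:**
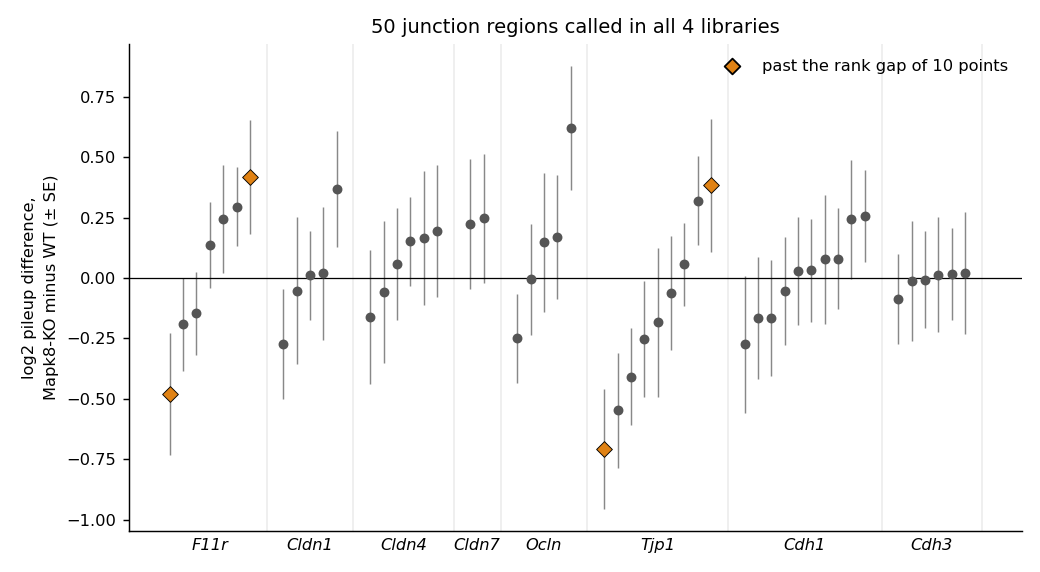
Fitted log2 pileup difference, Mapk8-KO minus WT, of the 50 regions called in all 4 libraries (points, bars ± SE), ordered by value within each gene; diamonds are the 4 regions past the rank gap, and the region shared by Cdh1 and Cdh3 stands with Cdh1. Differences range from -0.71 to 0.62, both ends in introns of Tjp1 and Ocln, and those of Cdh3 lie closest to 0.

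At their promoters, 7 of the 8 genes had a region called in all 4 libraries. Scaled to the depth of WT 1, the summit pileup averaged 164 ± 25.9 fragments (SD, n = 4 libraries) at F11r, 88.0 ± 8.61 at Cldn4, 58.8 ± 4.03 at Cdh1, 55.0 ± 11.1 at Tjp1, 54.8 ± 9.91 at Cldn1, 51.1 ± 5.11 at Ocln and 46.0 ± 9.29 at Cdh3. The lowest F11r library (140) was above the highest Cldn4 library (96.3), and the lowest Cldn4 library (76.0) was above the highest Cdh1 library (63.0). From Cdh1 downwards, the ranges of neighbours in this order overlapped. Overlap between libraries does not show equal levels, since Cdh1 was above Ocln within each of the 4 libraries. Differences within libraries were not tested. Cldn7 stood outside the order, with no region within 2 kb of any of its start sites.

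**Figure D3:**
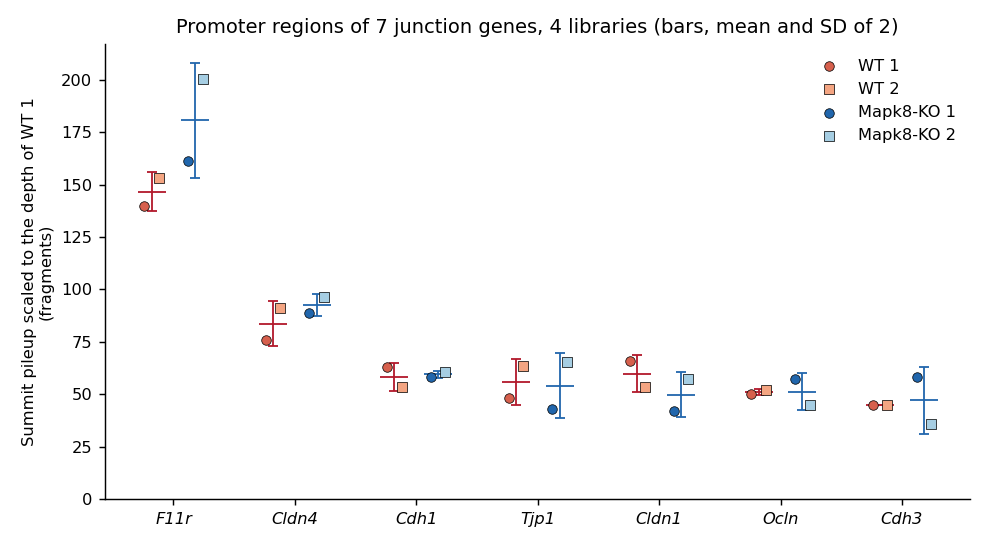
Summit pileup of the promoter region of 7 genes in fragments, scaled to the depth of WT 1, for each library (points), with the mean and SD of the 2 libraries of a genotype (bars). F11r stands at 140 to 200 in every library and Cldn4 at 76.0 to 96.3, above the other 5 genes.

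F11r encodes junctional adhesion molecule A and lies at chr1:171437535-171464603 on the plus strand. Its promoter region, chr1:171437231-171437843, held 140 and 106 fragments in WT and 180 and 129 in Mapk8-KO, unscaled. After scaling, these were 140, 153, 161 and 200, so both Mapk8-KO libraries were above both WT libraries. The log2 difference was 0.29 (95% interval -0.025 to 0.61, adjusted p = 0.540 in limma), and the interval included no change. It was the deepest region of the 8 genes.

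Of the 11 regions in the F11r window, 7 were called in all 4 libraries and 2 passed the rank gap, in opposite directions. The first, chr1:171452672-171453332, lies in an intron of F11r, 15632 bp downstream of the start. It held 50 and 31 fragments in WT and 36 and 23 in Mapk8-KO, and its fold percentile was 72.6 and 70.9 against 49.6 and 47.8. Both WT libraries were higher by rank, with a gap of 21.3 points between the nearest libraries of the 2 genotypes. Its log2 pileup difference was -0.48 (SE 0.25, adjusted p = 0.516 in limma), and its sequence, shown above, held none of the 3 motifs.

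The other, chr1:171416759-171417356, lies upstream of F11r in an intron of Usf1 and is nearest to the start of Tstd1, at 1976 bp. It held 41 and 27 fragments in WT and 57 and 36 in Mapk8-KO. Its fold percentile was 63.8 and 61.0 in WT, and 82.7 and 90.4 in the Mapk8-KO libraries, which were both higher by at least 18.9 points. The log2 pileup difference was 0.42 (SE 0.24, adjusted p = 0.556 in limma). Peak positions cannot tell apart whether it belongs to Usf1, Tstd1 or F11r.

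Downstream of F11r, 4 regions between chr1:171470213 and chr1:171478522 had deep summits on a high local background. The region chr1:171474397-171474770 held 96 and 60 fragments in WT and 108 and 67 in Mapk8-KO, at pileup percentiles of 82.5 to 89.2. Its fold percentile was only 2.72 to 9.92, because the local background stood at 12.5 to 22.7 fragments, against a median of 2.68 to 4.76 over all regions. By fold alone this region would rank among the weakest, and by pileup among the strongest. The fold ranks of the genotypes overlapped there, and the log2 pileup difference was 0.14 (SE 0.18).

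**Figure D4:**
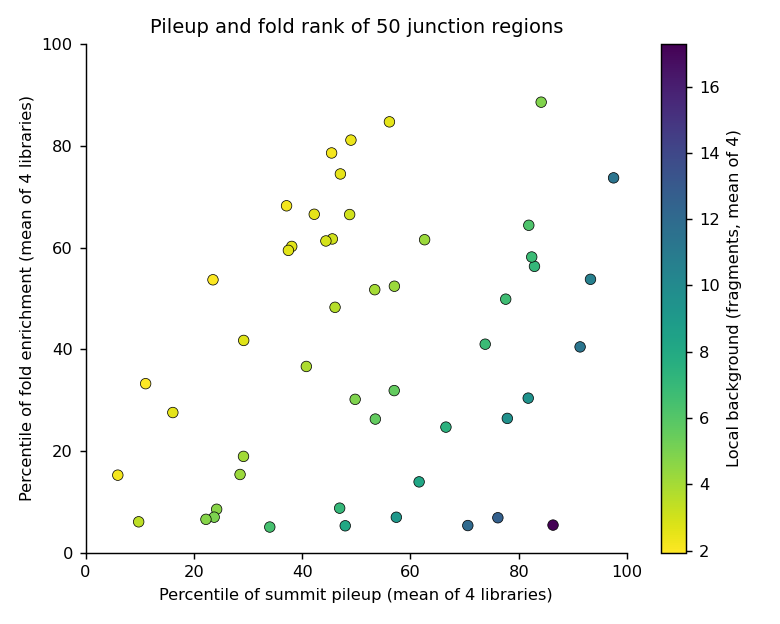
Percentile of fold enrichment against percentile of summit pileup, both within the library and averaged over 4 libraries, for the 50 regions called in all 4 (points), shaded by local background in fragments. Regions on the darkest background lie at the lower right, deep in fragments and low in fold.

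Among the claudins, Cldn1 encodes the claudin that is needed for the epidermal water barrier. It lies at chr16:26356642-26371841 on the minus strand, with 8 regions in its window, 5 of them called in all 4 libraries, and for all 8 the nearest start site was its own. The promoter region, chr16:26371386-26371960, held 66 and 37 fragments in WT and 47 and 37 in Mapk8-KO. Scaled for depth these were 66.0, 53.5, 42.1 and 57.4, and the genotypes overlapped. Their log2 difference was -0.27 (95% interval -0.72 to 0.17). Its fold percentile was low in every library, 1.58 to 9.06, on a local background of 6.51 to 11.9 fragments.

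The deepest region of Cldn1 was not the promoter but an intronic one, chr16:26369195-26369677, with its summit 2365 bp downstream of the start. It held 86 and 57 fragments in WT and 94 and 55 in Mapk8-KO, which came to 82.5 to 86.0 in all 4 libraries after scaling. The genotypes differed by 0.010 on the log2 scale (SE 0.18). A region at -14668 bp from the start differed more between libraries, with 54 and 26 fragments in WT and 54 and 45 in Mapk8-KO. Its log2 difference was 0.37 (SE 0.24, adjusted p = 0.631 in limma). None of the 8 regions held an AP-1 match, and none passed a criterion.

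Cldn4 encodes a claudin of the suprabasal epidermis and many simple epithelia. It lies at chr5:134945119-134946934 on the minus strand, with 11 regions in its window, 6 of them called in all 4 libraries. The promoter region, chr5:134946783-134947377, held 76 and 63 fragments in WT and 99 and 62 in Mapk8-KO, or 76.0, 91.2, 88.7 and 96.3 after scaling. The genotypes overlapped, and the log2 difference was 0.15 (95% interval -0.21 to 0.51). This promoter carried the 2 AP-1 matches printed above. The other 5 regions called in all 4 libraries held 16 to 54 fragments, fewer than the promoter in every library, and their log2 differences lay between -0.16 and 0.20. Of these, 4 lay upstream, between -20489 and -10398 bp from the start, and the most distant stood nearer to the start of Cldn3, the neighbouring claudin gene.

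Cldn7 encodes a claudin found along the lateral membrane of epithelial cells. It lies at chr11:69964779-69967885 on the plus strand and was the only gene of the 8 without an open region of its own. Its 5 annotated start sites were 13615 to 15754 bp from the middle of the nearest region. The 4 regions of its window lay at the starts of neighbours, 2 at Slc2a4, which encodes the glucose transporter GLUT4, 1 in Elp5 and 1 at Gabarap. The absence holds in all 4 libraries at these depths and does not show that the promoter is closed.

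The region called in both Mapk8-KO libraries only, chr11:69948036-69948511, was 1 of these, 109 bp from the start of Slc2a4. It held 25 fragments in Mapk8-KO 1 (95% Poisson interval 16.2 to 36.9, counting error only) and 12 in Mapk8-KO 2 (6.20 to 20.96). Neither WT library had a call there. A region next to it, chr11:69948820-69949125, was called in WT 1 with 13 fragments and in Mapk8-KO 1 with 19. The 2 regions called in all 4 libraries, in Elp5 and at Gabarap, had log2 differences of 0.25 (SE 0.27) and 0.22 (SE 0.27), within their errors.

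Ocln encodes occludin, a tetraspan protein of the tight junction strands. It lies at chr13:100496507-100552718 on the minus strand, with 9 regions in its window, 6 of them in its body and 5 called in all 4 libraries. The promoter region, chr13:100552232-100553849, held 50 and 36 fragments in WT and 64 and 29 in Mapk8-KO. After scaling, the WT libraries stood at 50 and 52.1, between the Mapk8-KO libraries at 57.4 and 45.0. The log2 difference was -0.0060 (95% interval -0.46 to 0.44).

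The deepest Ocln region, chr13:100516700-100517092, lies in an intron, with the start of Gtf2h2 as the nearest at 24335 bp, and carried the AP-1 match printed above. It held 90 and 66 fragments in WT and 84 and 52 in Mapk8-KO, or 90.0, 95.5, 75.3 and 80.7 after scaling. Both WT libraries were above both Mapk8-KO libraries, with a log2 difference of -0.25 (SE 0.18, adjusted p = 0.681 in limma). Another intronic region, chr13:100507043-100507569, went the other way and had the highest difference of the 50. It held 47 and 19 fragments in WT and 61 and 36 in Mapk8-KO, or 47.0, 27.5, 54.7 and 55.9 after scaling. The log2 difference was 0.62 (SE 0.26, unadjusted p = 0.020, adjusted p = 0.358 in limma), and WT 2 was the lowest library. The percentile of fold was 87.7 and 41.2 for WT and 93.4 and 92.0 for Mapk8-KO, and the nearest libraries stood 4.30 points apart.

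Tjp1 encodes zonula occludens 1, the scaffold under the tight junction. It lies at chr7:65296165-65527781 on the minus strand and had the most regions, 18, all with their summit in its body, 9 of them called in all 4 libraries. Only 2 were nearest to a Tjp1 start in the basic annotation. The promoter region, chr7:65370378-65371581, lies at the start of the shorter transcripts. It held 48 and 44 fragments in WT and 48 and 42 in Mapk8-KO, or 48.0, 63.7, 43.0 and 65.2 after scaling, so that the replicates differed more than the genotypes. The starts of the longer transcripts, at chr7:65527696 and chr7:65527781, had no region within 2 kb, the nearest being 29538 bp away.

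Most Tjp1 regions lay in the long intronic stretch between these starts. The deepest, chr7:65469657-65470549, held 114 and 88 fragments in WT and 124 and 91 in Mapk8-KO, and carried the AP-1 match printed above. The nearest start site was that of Gm44792, at 11118 bp. After scaling, the 4 libraries stood at 111 to 141, and the log2 difference was 0.057 (SE 0.17). The next deepest, chr7:65446310-65447057, held 85 and 54 fragments in WT and 124 and 60 in Mapk8-KO. Both Mapk8-KO libraries were above both WT libraries after scaling, at 111 and 93.1 against 85.0 and 78.1, and the log2 difference was 0.32 (SE 0.18, adjusted p = 0.558 in limma).

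The Tjp1 introns also held 2 of the 4 regions past the rank gap. The region chr7:65410437-65410969 held 48 and 43 fragments in WT and 35 and 23 in Mapk8-KO. After scaling these were 48.0, 62.2, 31.4 and 35.7, and both WT libraries were higher. Its fold percentiles were 68.5 and 82.9 against 56.3 and 58.4, which put the nearest libraries 10.1 points apart, just past the limit of 10. The log2 difference of -0.71 (SE 0.25) was the lowest of the 50 regions and had the lowest unadjusted p, 0.0072, with an adjusted p of 0.247 in limma. Its sequence held 1 AP-1 match.

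The region chr7:65435606-65435893 went the other way, with 26 and 20 fragments in WT and 40 and 23 in Mapk8-KO. The fold percentile was 44.2 and 45.9 against 61.5 and 63.1, with the nearest libraries 15.6 points apart. The log2 pileup difference was 0.38 (SE 0.27, adjusted p = 0.668 in limma), and the sequence held 1 grainyhead-like match. Just short of the limit stood chr7:65455220-65455644, with 58 and 39 fragments in WT against 50 and 22, and 9.35 points between the nearest libraries, WT being higher. It held an AP-1 match and had a log2 difference of -0.55 (SE 0.24, adjusted p = 0.400 in limma). Of the 9 Tjp1 regions fitted, 6 were lower and 3 higher in Mapk8-KO, with a median log2 difference of -0.18, and the range from -0.71 to 0.38 was wider than at Cdh1 or Cdh3.

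**Figure D5:**
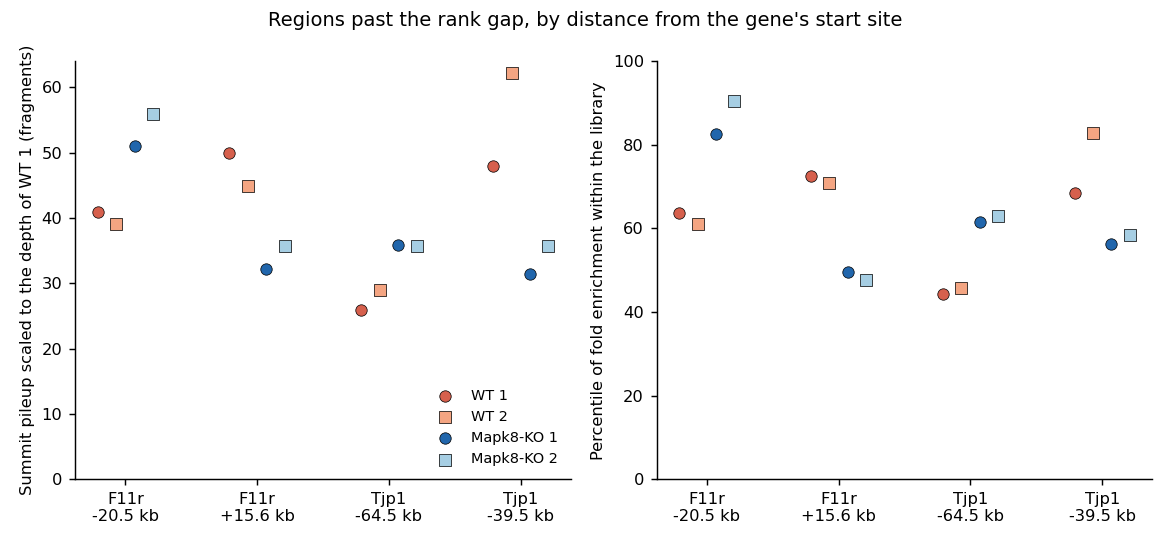
The 4 regions past the rank gap, labelled by gene and distance of the summit from its start site, with the summit pileup in fragments scaled to WT 1 (left) and the percentile of fold enrichment within each library (right), 1 point per library. In each region the 2 libraries of a genotype lie on one side of the 2 of the other in both panels, 2 regions in each direction.

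Cdh1 encodes E-cadherin, the cadherin of adherens junctions in all living layers of the epidermis. It lies at chr8:106603351-106670246 on the plus strand, with 16 regions in its window, 12 of them in its body and 10 called in all 4 libraries. The promoter region, chr8:106603007-106603664, held 63 and 37 fragments in WT and 65 and 39 in Mapk8-KO. After scaling, all 4 libraries stood at 53.5 to 63.0 and the genotypes overlapped. On the log2 scale they differed by 0.032 (95% interval -0.39 to 0.45).

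The introns of Cdh1 held a series of regions, the deepest at chr8:106619489-106619974. It held 73 and 49 fragments in WT and 87 and 61 in Mapk8-KO, or 73.0, 70.9, 78.0 and 94.7 after scaling. Both Mapk8-KO libraries were higher, with a log2 difference of 0.26 (SE 0.19, adjusted p = 0.686 in limma), the highest of the Cdh1 window, whose values ran from -0.27 to 0.26. The region called in both WT libraries only, chr8:106640181-106640458, also lies in an intron, 36876 bp downstream of the start. It held 15 fragments in each WT library (95% Poisson interval 8.395 to 24.7, counting error only), and no call was made in either Mapk8-KO library. At 15 fragments it was among the weaker calls, beside a minimum of 8 to 10 fragments per list.

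Cdh3 encodes P-cadherin, the cadherin of the basal epidermal layer and the hair follicle. It lies at chr8:106510891-106557297 on the plus strand, with 13 regions in its window, 7 of them called in all 4 libraries. The promoter region, chr8:106510414-106511442, held 45 and 31 fragments in WT and 65 and 23 in Mapk8-KO. After scaling, the WT libraries stood at 45.0 and 44.9 and the Mapk8-KO libraries at 58.3 and 35.7, one above and one below. The mean difference was 0.022 on the log2 scale (95% interval -0.47 to 0.52). The deepest region, chr8:106563727-106564347, lay downstream of the gene, nearest to the start of Gm10073 at 9424 bp, with 97 and 56 fragments in WT and 98 and 51 in Mapk8-KO, and a log2 difference of -0.088 (SE 0.19). Of the 7 regions, 3 were higher and 4 lower in Mapk8-KO, between -0.27 and 0.022. The lower end of that range was chr8:106581449-106581859, the region shared with Cdh1.

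Grouped by motif, the 14 regions with an AP-1 match called in all 4 libraries had a median log2 difference of -0.032, with 6 higher and 8 lower in Mapk8-KO. Those without a match numbered 36, with a median of 0.026, 22 of them higher. Over the whole set, the median was -0.13 in 9807 regions with a match and 0.045 in 30352 without. The order of the medians was the same in both, and the gap between them was narrower around the junction genes. No test was made of this difference.

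The other genes of these junctions were described by the same counts. A list of 26 further genes, including claudins, tricellulin, cingulin, nectins, catenins and the polarity proteins that place the tight junction, had 279 regions, 137 of them called in all 4 libraries (49.1%). Of the 279, 4 were called in both WT libraries only (1.43%, background 2.17%) and 4 in both Mapk8-KO libraries only (1.43%, background 1.65%). Of the 137, 5 passed the rank gap in favour of WT (3.65%, background 4.65%) and 10 in favour of Mapk8-KO (7.30%, background 4.07%), and the difference between these shares and the background was not tested. None passed the adjusted p in limma, with 9 at an unadjusted p under 0.05 (6.57%, against 10.4% of all regions tested), and the median log2 difference was 0.058.

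Nectin4, which encodes a nectin of the adherens junction and lies upstream of F11r on chromosome 1, had 3 of the regions ranked higher in Mapk8-KO. Its promoter region, chr1:171370192-171370633, held 59 and 29 fragments in WT and 80 and 49 in Mapk8-KO, with fold percentiles of 20.2 and 8.26 against 43.0 and 46.2. This came to a log2 difference of 0.57 (SE 0.22, adjusted p = 0.301 in limma). Cldn8, a claudin gene, had 2 regions called in Mapk8-KO only and 1 ranked higher there, chr16:88572774-88573613, with 15 and 11 fragments in WT and 28 and 19 in Mapk8-KO. The log2 difference of that region was 0.82 (SE 0.30, adjusted p = 0.281 in limma). Towards WT, a region in the Cldn3 window, chr5:135000699-135001690, passed the rank gap, 156 bp from the start of Wbscr25. It held 38 and 24 fragments in WT and 24 and 19 in Mapk8-KO, with a log2 difference of -0.53 (SE 0.28, adjusted p = 0.522 in limma). A Pard6b region also ranked higher in WT, with a log2 difference of -0.39 (SE 0.20). At Pard3, which encodes a polarity scaffold, 3 regions passed the rank gap in favour of WT and 2 in favour of Mapk8-KO. Rank and pileup disagreed at chr8:127440015-127441488, which ranked higher in Mapk8-KO with a log2 pileup difference of -0.19 (SE 0.18). At the promoter of Marveld2, which encodes tricellulin, 43 and 34 fragments in WT stood against 75 and 35 in Mapk8-KO, with a log2 difference of 0.39 (SE 0.23, adjusted p = 0.561 in limma). Another Marveld2 region, chr13:100627751-100628440, was called in both WT libraries only, with 12 and 13 fragments.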

How the data were processed

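ATAC-seq peak lists of 4 keratinocyte libraries were used. The authors mapped paired reads to mm10 with Bowtie2 and called peaks per library with MACS2 from whole fragments (BAMPE, summits called), and the submitters' processing notes also name Trimmomatic 0.36, STAR 2.5.3, Picard and SAMtools without saying for which assay. The deposited columns hold a score, the fold enrichment at the summit over local background, and −log10 p-values and q-values; every deposited q was below 0.01. Calls from whole fragments include nucleosome-length ones, and the transposase offset was not stated. Read totals are unknown from these lists.

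Peaks were merged at 1 bp overlap, and regions overlapping gene bodies (GENCODE vM21, basic start sites) and 25 kb flanks were kept. The highest summit per region and library was used. Pileup and local background were solved together from fold and p, and at least 99.996% of peaks per list gave whole fragments within 0.05. Depth was the median log2 ratio to the mean over libraries. Because counts per region were not used, the study's DESeq2 test was replaced by limma 3.58.1 (R 4.3.3) on log2 pileup with a variance trend, adjusted by Benjamini-Hochberg over all 40159 regions. Other steps used Python 3.11.15. Of these steps, only the pileup recovery and the limma fit were tested on simulated data. The differences planted there were larger than any fitted at the junction genes. Intervals are 1.96 SE or exact Poisson.

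The 8 genes, the lists, motifs and tests were chosen with earlier results of these data known. Regions named were each gene's promoter region, its deepest region and those past a criterion. Regions just short of the rank gap, other deep or distant regions of a gene's window and the highest log2 difference were named after their values were seen.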

Additional observations from a re-analysis of the deposited data

How the results depend on the processing

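Under 81 recomputed values for 7 results, 51 stayed within 1.5 times the reported count (for the median, within 1 SD between libraries, 0.020). The limma count was 0 under all 12 alternatives, while the number of regions called over the genome ranged from 0 to 1950.

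Regions called in all 4 libraries, 50 as reported, were 28 with no flank and 26 when assigned by nearest start site, since these keep 53 and 52 regions in place of 89. Regions called in both Mapk8-KO libraries only were 0 under both, and 2 with lists of equal length. Those at an unadjusted p under 0.05 in limma, 4 as reported, were 0 by nearest start site and 0 without depth centring. They were 2 with log2 of fold enrichment and 5 with the replicate block. Regions past the rank gap towards Mapk8-KO were 1 with no flank and 0 by nearest start site, and 0 at a gap of 20 points. Towards WT, 1 passed the gap by nearest start site, 4 at a gap of 5 points, 1 at 20 points and 4 with −log10 p in place of fold. Leaving out each library in turn (a rule then met by 1 library on one side) gave 50 to 55 regions called in all remaining libraries, 1 to 6 specific to WT, 2 to 6 specific to Mapk8-KO, 2 to 6 past the gap towards WT and 5 to 9 towards Mapk8-KO, and WT 1, WT 2, Mapk8-KO 1 and Mapk8-KO 2 each moved at least 1 of these counts by over 1.5 times when left out. The median log2 difference was 0.046 without depth centring and 0.066 with centring on library medians, which was chosen after seeing the data. It ranged from -0.023 (without WT 2) to 0.070 (without Mapk8-KO 1) over the 4 libraries left out, the lone library then being assumed to vary like the others.

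The replicate numbers are only numbers in the labels. Over 40159 regions, the change between replicates in WT and in Mapk8-KO had a Pearson r of 0.039, a description over regions that share libraries. With the replicate block, 2 regions passed the gap towards WT and 3 towards Mapk8-KO, the median stayed at 0.018, and limma called 0 junction regions and 309 over the genome, against 94. In the deeper library of each genotype and in no other, 15 regions were called, and the part of depth in this was not tested.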

Other observations

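Desmosomes, the other adhesive junctions of the epidermis, and hemidesmosomes, which anchor basal keratinocytes to the basement membrane, were described by the same counts. Around 11 desmosome genes there were 104 regions, 57 of them called in all 4 libraries (54.8%, against 48.6% of all regions). Of these 104, 1 was called in both WT libraries only (0.962%, against 2.17%) and 0 in both Mapk8-KO libraries only (against 1.65%). Among the 57, 2 passed the rank gap, both in favour of WT (3.51%, against 4.65%). Around 9 hemidesmosome and basement membrane genes there were 139 regions, 59 of them called in all 4 libraries (42.4%). Of these 139, 1 was specific to each genotype (0.719% each, against 2.17% for WT and 1.65% for Mapk8-KO). Among the 59, 3 passed the rank gap in favour of WT (5.08%, against 4.65%) and 1 in favour of Mapk8-KO (1.69%, against 4.07%). In limma, 0 regions of either list passed an adjusted p of 0.05, with 2 (3.51%) and 5 (8.47%) at an unadjusted p under 0.05, against 10.4% of all regions, and the median log2 differences were 0.042 and -0.026.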
